A study of Arabidopsis thaliana with 8 samples.

Results

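Cpn60beta3 (AT5G56500) and Cpn60beta4 (AT1G26230), subunits of the plastid chaperonin, and SECE1 (AT4G14870), a subunit of the thylakoid Sec translocase, were measured in Arabidopsis thaliana. Each of the 3 genes was taken where the platform annotation pairs a probe with that gene and no other, which gave 1 probe per gene, or 3 of the 692 probes that have a single gene among the 3439 on the array. The 8 samples of total RNA came from wild-type plants of the Landsberg ecotype, a laboratory strain, kept for 48 h at 20 µE in red light (4 samples) or in white light (4 samples). The labels name no tissue, age or prior light, and they do not say whether samples came from separate plants, so that each p-value reflects the variation among these 8 samples alone, part or all of which may be technical. Values are intensities in arbitrary units, and no level of one probe is set against that of another.

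The plastid chaperonin is a double-ring barrel of alpha and beta subunits in which imported and newly made proteins fold, Rubisco large subunits being its best known clients. Arabidopsis has several beta subunits. Cpn60beta4 is a divergent one that is known for folding NdhH, a subunit of the chloroplast NADH dehydrogenase-like complex. Cpn60beta3 is closer to the other beta subunits. The Sec translocase moves unfolded proteins, plastocyanin among them, across the thylakoid membrane. SECE1 is its small membrane subunit, SCY1 forms the channel and SECA1 is the motor that uses ATP.

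Samples 1 and 2 of each light resembled each other, and so did samples 3 and 4. Spearman correlations over all probes ran from 0.910 to 0.947 within these pairs and from 0.777 to 0.825 between the pairs of one light. The labels do not describe these pairs. Summed intensity was 2549 to 3196 on the red arrays and 1691 to 2373 on the white arrays, and in each light it was higher in samples 3 and 4 than in samples 1 and 2. The median probe ran the other way between same-numbered arrays, at 0.202 to 0.257 on the red and 0.237 to 0.289 on the white arrays. Values of 0 numbered 573 to 604 on the red and 393 to 468 on the white arrays, so that the distributions differed in shape between lights. Of the green-tissue markers, 1 of 7 had a probe of its own, LHB1B2, an antenna protein gene, with intensities of 10.5 to 24.8 on the red arrays and 2.61 to 14.7 on the white arrays. None of the 5 markers of non-green tissue had one. Fewer cells of a type and less RNA per cell cannot be told apart in such samples. The 24 values of the 3 genes ran from 0.0390 to 1.81, with none at 0 or at the ceiling of 100.

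SECE1 was lower in red light than in white light. Its deposited intensities were 0.517, 0.671, 0.921 and 0.906 in red samples 1 to 4, against 0.760, 0.943, 1.74 and 1.81 in white samples 1 to 4. The red sample lay below the white sample of the same number in 4 of 4 cases, but red samples 3 and 4 lay above white sample 1, so that the groups overlapped on the scale as deposited. There the means were 0.754 ± 0.195 for the red samples and 1.31 ± 0.538 for the white samples (SD, n = 4 each).

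After quantile normalization, which gives all arrays the same distribution of values, the SECE1 groups no longer overlapped. The normalized intensities were 0.590, 0.752, 0.754 and 0.739 in red samples 1 to 4, against 1.08, 1.38, 1.69 and 1.75 in white samples 1 to 4. The highest red sample thus stayed below the lowest white one. SECE1 fell by 1.04 on the log2 scale (SE 0.22, 95% confidence interval -1.54 to -0.53), a level 2.05-fold lower in red light (limma, adjusted p = 0.0126 over 3032 probes). An exact two-sided permutation test over the 8 samples gave p = 0.0286, the smallest that 70 splits allow, which became 0.0980 when adjusted over all probes tested. That test counts the 8 samples as separate, although the samples of each pair resembled each other, so that its p-value may be too small. Groups that did not overlap with red the lower were found for 14.8% of the probes, and limma called 10.9% of the probes lower in red light. SECE1 stood at rank 332 of 3032 counted from the most negative change, so that a change of its size was shared by many probes.

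The call for SECE1 depended on the scale. On the values as deposited its log2 fold change was -0.74 (SE 0.35, 95% confidence interval -1.53 to 0.05, limma adjusted p = 0.153), where limma called 15.4% of the probes lower in red light. With arrays centred on their medians it was -0.54 (SE 0.27, limma adjusted p = 0.175). The median probe moved by -0.14 as deposited, -0.03 after quantile normalization and 0.01 with median centring. Relative to that median, SECE1 stood at -0.60, -1.01 and -0.56. Exact permutation gave p = 0.114 for SECE1 with either of these scalings.

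Same-numbered samples deviated together from their group means, and with the sample number as a replicate block SECE1 passed on the deposited scale too (log2 fold change -0.74, SE 0.17, limma adjusted p = 0.0276). That fit called 18.8% of the probes lower in red light. With median centring and the replicate block SECE1 did not pass (limma adjusted p = 0.0806). The replicate block still counts the similar samples of a pair as separate. The ratio of red to white deposited intensity of SECE1 was 0.680, 0.711, 0.529 and 0.501 in samples 1 to 4. Such a decrease in 4 of 4 same-numbered samples was found for 29.6% of the probes on that scale. It held for SECE1 after quantile normalization, with log2 differences from -1.24 to -0.88, and with median centring, with -0.82 to -0.26. Over 4 such differences an exact sign-flip test cannot go below p = 0.125, the value it gave on each scale.

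After quantile normalization, with the pair of similar samples fitted as a random block, SECE1 no longer passed (limma adjusted p = 0.161). Nor did it pass with each pair averaged to 1 value (limma adjusted p = 0.336). With the pair number as a block on those averages, SECE1 did not pass either (limma adjusted p = 0.212). Its log2 fold change was -0.88 in samples 1 and 2 alone (adjusted p = 0.0577) and -1.20 in samples 3 and 4 alone (adjusted p = 0.00752), in limma fits that rest on the spread within pairs. Those 2 fits called 1268 and 1176 of the 3032 probes, 636 and 609 of them lower in red light. Leaving out any single sample kept the SECE1 call, with adjusted p from 0.0103 to 0.0330 in limma. Each such fit kept the similar sample of the same pair, so that it cannot show how the call fares under the pairing.

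**Figure D1:**
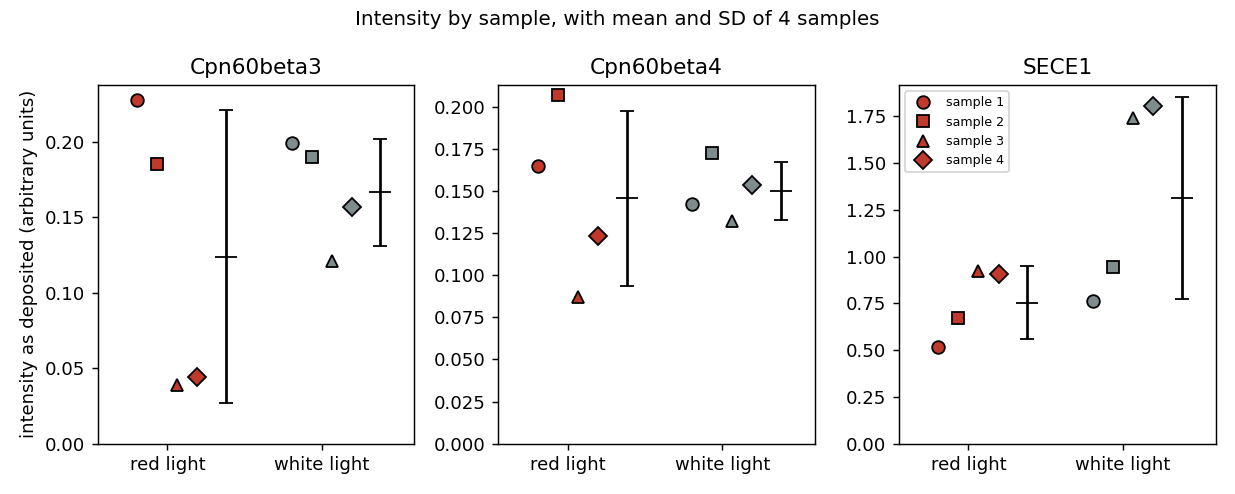
Deposited intensity (arbitrary units, linear axis from 0) of each gene in the 4 red and 4 white samples, with marker shape for the sample number and a bar for the mean and SD of 4 samples. SECE1 averaged 0.754 on red and 1.31 on white arrays, and Cpn60beta3 split within red light, with samples 3 and 4 at 0.0390 and 0.0439 and samples 1 and 2 at 0.227 and 0.185.

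**Figure D2:**
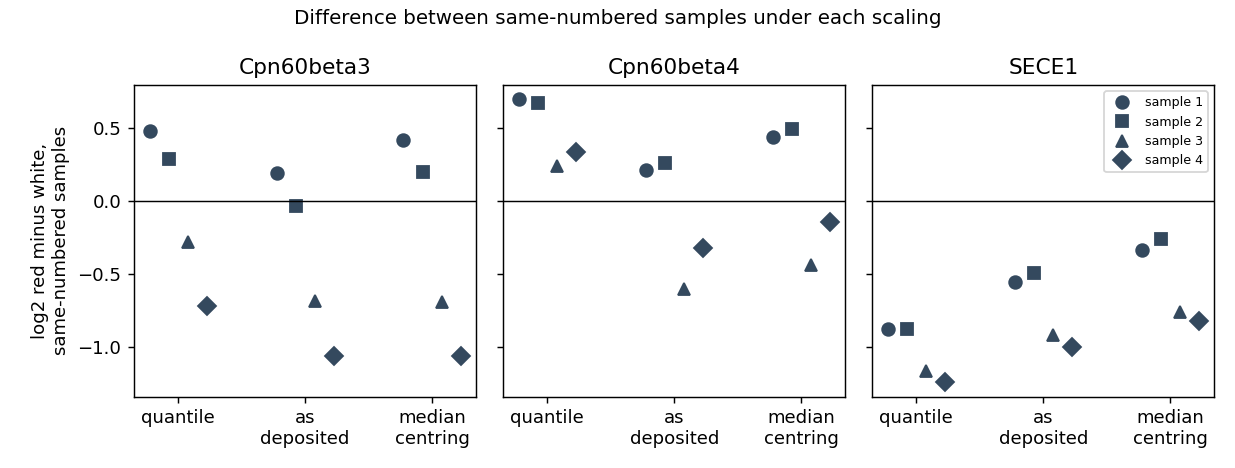
Log2 difference, red minus white, between samples of the same number for each gene under 3 scalings, with a line at no difference and values below the floor set to it. All 4 points of SECE1 lie below the line under each scaling. All 4 points of Cpn60beta4 lie above it only after quantile normalization, and on both sides under the other scalings. Those of Cpn60beta3 lie on both sides.

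Cpn60beta4 did not pass the test. Its deposited intensities were 0.165, 0.207, 0.0872 and 0.123 in red samples 1 to 4, against 0.142, 0.173, 0.132 and 0.153 in white samples 1 to 4. The red samples lay on both sides of the white ones, above them in samples 1 and 2 and below them in samples 3 and 4. The means were 0.146 ± 0.0519 for the red samples and 0.150 ± 0.0173 for the white samples (SD, n = 4 each).

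After quantile normalization Cpn60beta4 stood at 0.207, 0.253, 0.113 and 0.146 in red samples 1 to 4, against 0.127, 0.158, 0.0952 and 0.115 in white samples 1 to 4. Red was then above white in 4 of 4 same-numbered samples, while the groups still overlapped. An exact sign-flip test over those 4 differences gave p = 0.125, the smallest it can give. The share of all probes with such an increase was not counted. The log2 fold change was 0.49 (SE 0.30, 95% confidence interval -0.19 to 1.17, limma adjusted p = 0.261), and exact permutation gave p = 0.200. The interval takes in no change as well as a level more than 2-fold higher in red light. The direction followed the scaling, since the log2 fold change was -0.11 as deposited and 0.09 with median centring, with limma adjusted p of 0.809 and 0.887. With the replicate block after quantile normalization the adjusted p was 0.0976 in limma.

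Cpn60beta3 did not pass either, and its values differed more within red light than between the lights. Its deposited intensities were 0.227, 0.185, 0.0390 and 0.0439 in red samples 1 to 4, against 0.199, 0.190, 0.121 and 0.157 in white samples 1 to 4. Red samples 3 and 4 were lower than every white sample, and red sample 1 was higher than every white sample. The means were 0.124 ± 0.0968 for the red samples and 0.166 ± 0.0355 for the white samples (SD, n = 4 each).

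The fitted log2 fold change of Cpn60beta3 was -0.06 (SE 0.51, 95% confidence interval -1.21 to 1.10, limma adjusted p = 0.950), and exact permutation gave p = 0.943. A change of 2-fold either way lies within that interval, so that these arrays do not show that Cpn60beta3 was alike in the 2 lights. The log2 fold change was -0.40 as deposited and -0.28 with median centring, with limma adjusted p of 0.513 and 0.734, and red samples 3 and 4 were set to the floor in both fits. Low values of Cpn60beta3 were near the end of the usable range. The floor below which values were set equal was 0.0716 after normalization, and Cpn60beta3 stood at 0.0612 in red sample 3 and at 0.0717 in red sample 4. Its normalized intensities in red samples 1 and 2 were 0.271 and 0.224, against 0.194, 0.183, 0.0869 and 0.118 in white samples 1 to 4.

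Both chaperonin probes had a higher mean deposited intensity in samples 1 and 2 than in samples 3 and 4 of each light. The mean deposited intensity of Cpn60beta3 was 0.206 in red samples 1 and 2 and 0.0414 in red samples 3 and 4, both of which lay below the floor of the deposited scale, 0.0751, so that the level was at least 2.75-fold higher in red samples 1 and 2. It was 1.40-fold higher in white samples 1 and 2 than in white samples 3 and 4, with 0.194 and 0.139. For Cpn60beta4 the same folds were 1.77 among red and 1.10 among white arrays. Its white pairs overlapped, with white sample 4 (0.153) above white sample 1 (0.142). SECE1 ran the other way, with a mean 1.54-fold higher in samples 3 and 4 in red light and 2.08-fold higher in samples 3 and 4 in white light. Summed intensity was also higher in samples 3 and 4, and its part in these differences was not tested.

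After quantile normalization the log2 level in samples 1 and 2 minus that in samples 3 and 4 was, for Cpn60beta3, 0.90 among white arrays and at least 1.78 among red arrays, where red sample 3 was at the floor and red sample 4 next to it. It was 0.84 among red and 0.44 among white arrays for Cpn60beta4, and -0.16 among red and -0.49 among white arrays for SECE1. On that scale the gap between pairs was larger than the fitted difference between lights for Cpn60beta3 and smaller for SECE1. For SECE1 this changed with the scaling, though among white arrays only. White samples 3 and 4 exceeded white samples 1 and 2 by 1.07 on the log2 scale as deposited and by 0.78 with median centring. These gaps were larger in size than the fitted differences between lights of -0.74 and -0.54. Among red arrays the same gaps were 0.63 and 0.29, smaller in size than those differences. Within samples 1 and 2 alone the log2 fold change of Cpn60beta3, red minus white, was 0.39 (limma adjusted p = 0.118), and within samples 3 and 4 alone, with the red values at or next to the floor, it was -0.50 (limma adjusted p = 0.147), opposite signs of which neither passed the test. The difference between these values was not tested. For Cpn60beta4 the same values were 0.69 (limma adjusted p = 0.0717) and 0.29 (limma adjusted p = 0.342).

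Of the 3 genes, 1 was called, against 22.0% of all probes tested and 147 of the 614 single-gene probes tested, which were 66 lower and 81 higher. The changes of Cpn60beta3 and Cpn60beta4 lay inside the bulk of the probes, with 48.9% and 72.7% of the probes below them, and 10.9% lay below SECE1. With 1 call among 3 genes, the count does not set the group apart from the array.

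**Figure D3:**
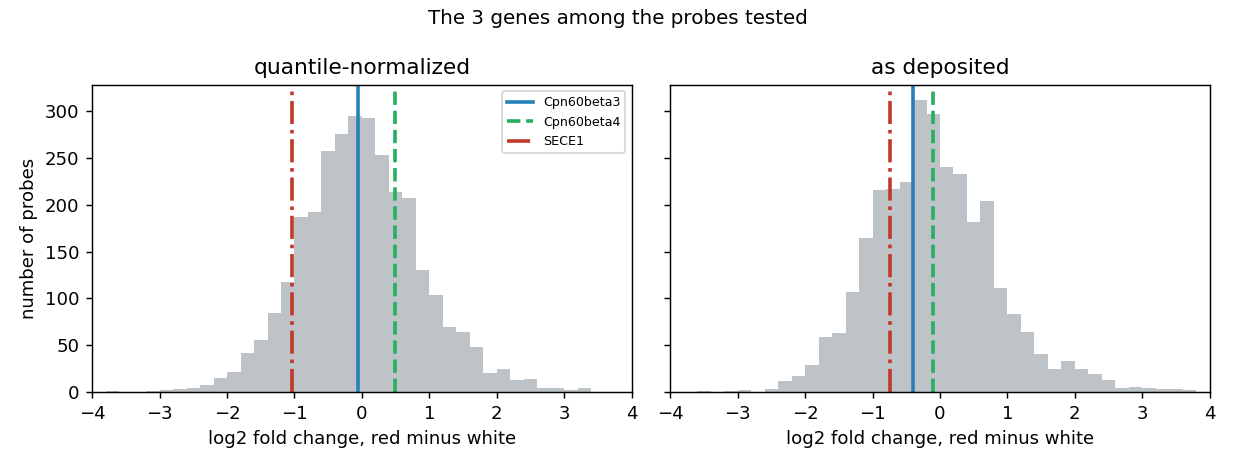
Histogram of the log2 fold change, red minus white, of the probes tested after quantile normalization (left) and of the same probes as deposited (right), with a vertical line for each gene. SECE1 lies at -1.04 on the left and at -0.74 on the right, and both chaperonin genes lie near the middle of the distribution.

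The surrounding pathways were sparsely covered. Lists of 96 genes for plastid and mitochondrial chaperonins, Rubisco assembly, thylakoid and envelope Sec, signal recognition particle, twin-arginine, TOC and TIC import, plastid heat-shock proteins and plastid proteases had a probe of their own for 6 genes, the 3 described above included. After quantile normalization, 1 of these 6 genes was called lower in red light (SECE1), 0 were called higher and 5 did not pass the test. Of all probes tested, 22.0% were called, and 10.9% were called lower in red light. The median log2 fold change of the 6 genes was -0.03, as was that of all probes tested. The other plastid chaperonin subunits, among them CPN60A and CPN60B, and the SECE1 partners SCY1 and AGY1 (also called SECA1) had no probe of their own. Another 5 probes matched genes of the lists together with other genes and are not named.

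The gene of the envelope Sec list with a probe, AT4G38490, had deposited intensities of 0.256, 0.267, 0.213 and 0.181 in red samples 1 to 4, against 0.426, 0.310, 0.499 and 0.465 in white samples 1 to 4. All red samples were below all white samples on that scale, which held, with red the lower, for 18.7% of the probes. After quantile normalization its log2 fold change was -0.76 (SE 0.24, limma adjusted p = 0.0547), which missed the threshold, and as deposited it passed with -0.88 (SE 0.23, limma adjusted p = 0.0220). Which of SECE1 and AT4G38490 was called thus changed with the scaling, while both had negative values on each of the 3 scales.

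AT3G47650, from the Rubisco assembly list, had the opposite sign. Its deposited intensities were 0.447, 0.328, 0.233 and 0.238 in red samples 1 to 4, against 0.200, 0.180, 0.188 and 0.210 in white samples 1 to 4. All red samples were above all white ones on that scale, which held, with red the higher, for 11.6% of the probes. The log2 fold change was 0.91 (SE 0.30, limma adjusted p = 0.0577), and it was 0.63 as deposited (limma adjusted p = 0.0938). With the replicate block after quantile normalization it passed (limma adjusted p = 0.0391), as did SECE1 (limma adjusted p = 0.0130). That fit called 788 of the 3032 probes, 385 higher and 403 lower in red light. AT3G47650 did not pass in limma where each pair of similar samples was a random block (adjusted p = 0.291), or where pairs were averaged with their number as a block (adjusted p = 0.288). AT1G68660, from the protease list, had a log2 fold change of -0.01 (SE 0.21, limma adjusted p = 0.983) and deposited means of 0.251 ± 0.0261 for red and 0.293 ± 0.0871 for white samples (SD, n = 4 each).

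**Figure D4:**
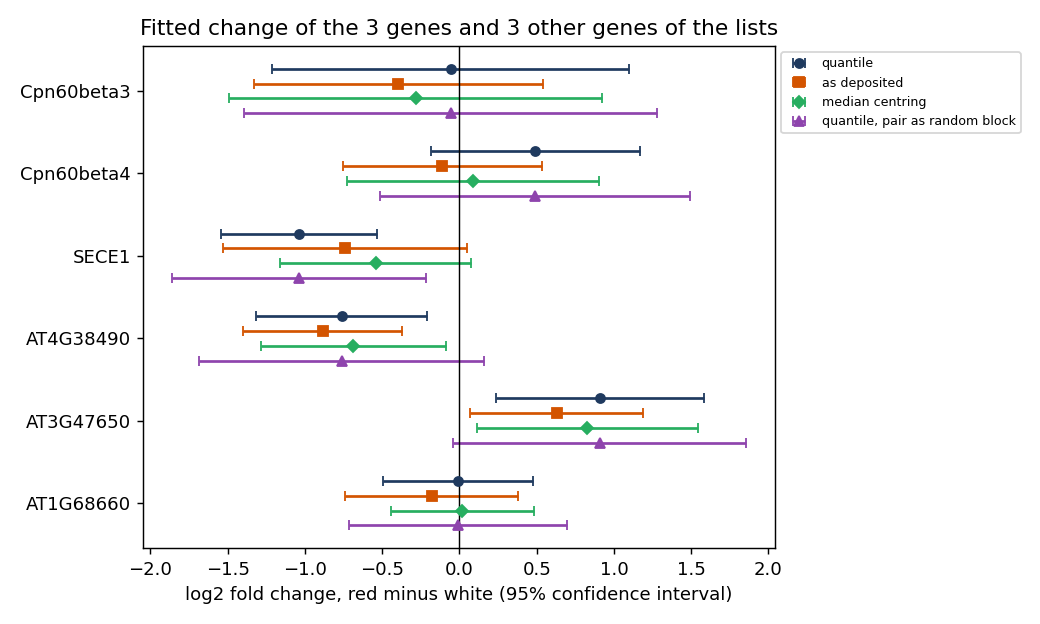
Fitted log2 fold change, red minus white, with 95% confidence interval, for the 3 genes and the 3 other list genes with a probe of their own, under 3 scalings and with pairs of similar samples as a random block. The interval of SECE1 lies below 0 after quantile normalization (-1.54 to -0.53) and crosses 0 on the deposited scale (-1.53 to 0.05), and that of Cpn60beta3 spans -1.21 to 1.10.

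Among single-gene probes above the floor on all 8 arrays, the 3 whose normalized log2 profile was most like that of SECE1 were AT2G28390 (annotated as MON1), IAA31 and AT4G30680, with Pearson r of 0.987, 0.976 and 0.958 over the 8 samples. The same r on the deposited scale was 0.979, 0.977 and 0.902. Their log2 fold changes were -0.60, -0.76 and -1.05, given as a description with no test, since a profile chosen for likeness to SECE1 over these samples shares its difference between lights. IAA31, a member of the Aux/IAA family of auxin-response repressors, had deposited intensities of 0.488, 0.497, 0.638 and 0.649 in red samples 1 to 4, against 0.557, 0.631, 1.22 and 1.21 in white samples 1 to 4. On that scale it was, like SECE1, lower in red light in each number and higher in samples 3 and 4 of both lights. After quantile normalization, red samples 3 and 4 of IAA31 (0.539 and 0.549) lay below red samples 1 and 2 (0.562 and 0.581).

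The profile of Cpn60beta3 was most like those of AT5G19540, AT1G22040 and AT3G20490, with r of 0.974, 0.962 and 0.961 over the 8 samples, and their log2 fold changes were -0.11, -0.16 and -0.05. AT5G19540 had deposited intensities of 0.497, 0.539, 0.259 and 0.300 in red samples 1 to 4, against 0.435, 0.443, 0.357 and 0.397 in white samples 1 to 4. Its samples 3 and 4 were lower than its samples 1 and 2 in both lights. On that scale this did not hold for AT1G22040 in white light, with 0.486, 0.388, 0.403 and 0.414 in white samples 1 to 4. For Cpn60beta4 the closest were AT4G17650, AT1G33250 and AT3G44570, with r of 0.922, 0.920 and 0.916. On the deposited scale these were 0.917, 0.688 and 0.784. The 8 samples form 4 pairs, so that these r values rank likeness and were not tested.

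**Figure D5:**
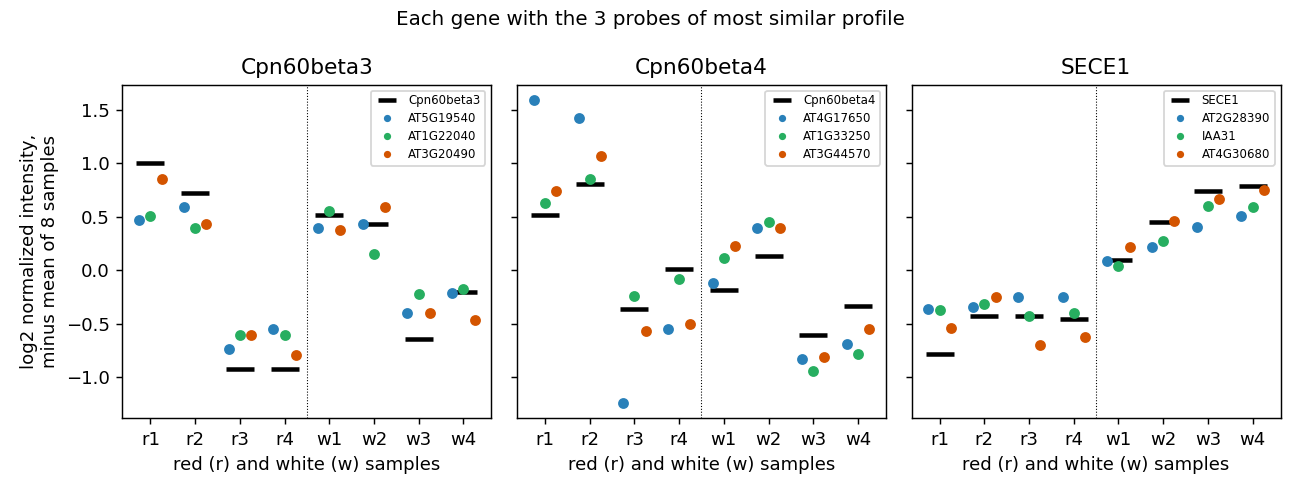
Normalized log2 intensity minus the mean of the 8 samples, for each gene (black bars) and the 3 single-gene probes of most similar profile (coloured points), in red samples (r1 to r4) and white samples (w1 to w4). The red values of SECE1 and its 3 closest probes lie below their white values, and Cpn60beta3 and its 3 closest probes are low in samples 3 and 4 of both lights.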

How the data were processed

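The deposited table holds array intensity values on a linear scale, 1 column per sample. How the authors corrected background, scaled or filtered them is not given in the sources used here. Coordinates are left out because no build is named. Probe names rest on the platform annotation, unchecked against probe sequences, and gene symbols on a TAIR10.1 table. No protein or probe sequence was used here.

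Arrays were quantile-normalized, values below 0.0716 were set to that floor (the highest of the 8 arrays' 5th percentiles of positive values), 407 probes at the floor on all arrays were left out, and log2 values of 3032 probes were fitted, red minus white, two-sided, in limma 3.58.1 (lmFit, eBayes; R version 4.3.3), with Benjamini-Hochberg adjustment over all probes and a threshold of 0.05. Folds come from normalized values unless said otherwise. The fit was tested on simulated data with independent noise in each sample. Those data lacked the likeness within pairs seen here, so that the test does not show how the calls fare under it. Exact permutation used the 70 splits of 8 samples. Plots were made in Python 3.11.15 using pandas 2.3.3 and matplotlib 3.10.9.

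Sample numbers come from the labels. Same-numbered samples of the 2 lights had correlated deviations from their group means (0.239 to 0.320, against -0.206 to 0.107 for different numbers), so the number was also fitted as a block. The genes and lists were chosen with earlier results of these data known. Named were the 3 genes, every list gene with its own probe, and the 3 probes with the highest Pearson r to each. Alternatives were other scalings, floors, filters, variance models and array weights, fits built on pairs of similar samples, and leaving out each sample. The number of arrays limits the precision.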

Additional observations from a re-analysis of the deposited data

Results flagged for a closer look

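Among 29 groups of 4 values from the named genes, all above the floor, 1 group held a sample far from its other 3, where chance gives about 1 in 20 for independent values. It was SECE1 in red sample 1, at a normalized log2 intensity of -0.76, with the other red samples from -0.44 to -0.41. Without that sample the log2 fold change of SECE1 was -0.95 (limma adjusted p = 0.0330).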

How the results depend on the processing

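SECE1 had a negative log2 fold change under all 26 alternatives and passed under 19 of them. SECE1 passed on another scaling only as deposited with the replicate block, and the other passing fits shared the quantile-normalized values. It did not pass as deposited (-0.74, limma adjusted p = 0.153; also by exact permutation), with median centring (-0.54 without the replicate block, also by exact permutation, and -0.54 with it), with samples 1 and 2 alone (-0.88), or with the pair as a random block, with averaged pairs, or with averaged pairs and the pair number as a block, where the value stayed at -1.04. Without single samples it ran from -1.18 to -0.95. Cpn60beta4 passed under 0 of 25 alternatives. It was -0.11 as deposited, with and without the replicate block and by exact permutation, and 0.30 to 0.69 without single samples. Cpn60beta3 passed under 0 of 25. It turned positive with the higher floor (0.19) and in samples 1 and 2 alone (0.39), and ran from -0.40 to 0.24 without single samples: 0.24 without red sample 3, 0.24 without red sample 4, 0.11 without white sample 1 and 0.079 without white sample 2. Both chaperonin probes were too dim to be kept when dim probes were left out.

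The replicate block changed no call of the 3 genes after quantile normalization. List genes called numbered 1 in the reported fit, 0 with median centring (with or without the replicate block), the random block and both fits of averaged pairs, 2 with the higher floor, without dim probes, with array weights, with the replicate block and as deposited with that block, 3 with a floor per array and in samples 3 and 4 alone, and 1 without any single sample. Probes called numbered 666, against 1254 with a floor per array, 114 with the random block, 0 with averaged pairs, 200 with averaged pairs and the pair number as a block, 1268 in samples 1 and 2 alone, 1176 in samples 3 and 4 alone, and 453 to 613 without single samples. Both fits of averaged pairs rest on 2 values a group, and the cause of the 0 calls in the first was not tested.

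Among other named genes, signs turned for 5 that did not pass in the reported fit. AT1G68660 was 0.018 with median centring (with or without the replicate block), 0.30 in samples 1 and 2 alone and -0.12 to 0.12 without single samples. AT5G19540 was 0.10 with median centring (either way), 0.12 in samples 1 and 2 alone and -0.33 to 0.12 without single samples. AT1G22040 was 0.052 with median centring (either way), 0.097 in samples 1 and 2 alone and -0.35 to 0.019 without single samples. AT3G20490 was 0.16 in samples 1 and 2 alone and -0.35 to 0.20 without single samples. AT4G17650 was -0.14 in samples 3 and 4 alone. With the pair as a random block none of the other named genes was called. The lower floor and the fits that join a scaling with the replicate block were chosen after seeing the data. The causes were not tested.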
